A study of Mus musculus with 18 samples.

Results

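The genes described here encode the proteins of the mitochondrial ribosome that carry the symbols Mrpl (large, 39S subunit) and Mrps (small, 28S subunit). They were taken as every symbol made of Mrpl or Mrps, a number and at most 1 letter from a to c, which left out pseudogenes, and this gave 78 of the 56691 genes in the deposited tables. They were split by symbol, with Mrps18a and Mrps30 moved to the 39S subunit, which gave 51 members for the 39S and 27 for the 28S subunit. Every other Mrps symbol, Mrps36 among them, was counted as 28S. Whether each protein sits in the particle was not checked. RNA-seq was done on wild-type (wt) mouse bone marrow mesenchymal stem cells (BMSCs) on day 4 of culture. FGF9, a secreted fibroblast growth factor, was given at 20 ng/ml in plain culture medium (CM_F9), in osteogenic induction medium (OI_F9) and in adipogenic induction medium (AI_F9), and the same media with 0 ng/ml were the controls (CM, OI and AI). Each of the 6 groups has 3 libraries, 18 in all. Ascorbate-2-phosphate, beta-glycerol phosphate and dexamethasone are the inducers in OI, and AI holds dexamethasone, rosiglitazone, a phosphodiesterase inhibitor and insulin. The cells were primary cultures grown out of collagenase-digested compact bone and used at low passage. The sample labels do not name the mouse or culture behind each replicate. The paper speaks of at least 3 biological replicates per group, and its RNA-seq figure legend of 3 independent analyses. Whether a replicate number stands for the same experiment in every group is not stated there. Each p value therefore rests on the variation among the deposited libraries, and how much of it is technical is unknown.

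Mitochondria keep a small genome of their own that encodes core subunits of the respiratory chain, and a ribosome related to that of bacteria translates it. Its rRNAs come from the mitochondrial genome, whereas all of its proteins are encoded in the nucleus, made in the cytosol and imported. Compared with its bacterial relatives the particle is rich in protein, and many of its proteins have no bacterial counterpart. White adipocytes acquire more mitochondria as they differentiate, and brown adipocytes are known for their high mitochondrial content.

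Libraries held 16719561 to 20526502 counted reads (median 18813494). All 78 members passed the filter on low counts that left 17631 genes to test. The 78 genes lie on 17 chromosomes, took 672246 reads over all libraries, and had a median exonic length of 2394 bases (607 to 8631). The stromal markers (Pdgfra, Ly6a, Thy1 and 7 others) summed to 305 to 317 FPKM (reads scaled to the length of a gene and the depth of its library) in AI_F9 and 580 to 602 FPKM in AI, and to 832 to 1147 FPKM in the other groups. Markers of macrophages, a cell type that BMSC cultures can carry, were far from 0 in every library. The 10 of them summed to 372 to 406 FPKM in AI_F9 and 1259 to 1471 FPKM in AI, to 852 to 882 in OI_F9 and 983 to 1199 in OI, and to 387 to 453 in CM_F9 and 374 to 621 in CM. The 4 erythroid markers summed to at most 0.300 FPKM in any library. The 7 adipocyte markers summed to 3775 to 4171 FPKM in AI_F9, against 1591 to 1787 FPKM in AI, to 141 to 171 in OI_F9 and 110 to 127 in OI, and to 82.1 to 92.6 in CM_F9 and 46.2 to 59.5 in CM. The 6 osteoblast markers summed to 29.9 to 32.4 FPKM in AI_F9 and 649 to 674 in AI, to 336 to 353 in OI_F9 and 2072 to 2274 in OI, and to 346 to 352 in CM_F9 and 1627 to 1734 in CM. Alpl, Col1a1 and Ibsp fell with FGF9 in each medium, whereas Bglap rose in AI_F9, OI_F9 and CM_F9 (log2 fold change 1.73, 2.30 and 3.02). Sp7 rose in CM_F9 (0.52) and Runx2 had 0.10 there and -0.09 in OI_F9, and both fell in AI_F9 (-0.28 and -0.92). Lpl, an adipocyte marker, fell in OI_F9 (-0.74) and CM_F9 (-0.24), and the stromal markers Ly6a and Nt5e rose in AI_F9 (1.30 and 1.44). In bulk RNA, fewer cells of a type and less RNA per cell cannot be told apart.

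Mitoribosomal protein transcripts took their largest share of the RNA in adipogenic medium with FGF9. The members summed to 0.279, 0.278 and 0.307% of the counted reads in AI_F9, against 0.219, 0.217 and 0.251% in AI. They summed to 0.177, 0.174 and 0.203% in OI_F9 and 0.160, 0.162 and 0.181% in OI. They summed to 0.167, 0.166 and 0.173% in CM_F9 and 0.152, 0.145 and 0.157% in CM. Each AI_F9 library lay above each AI library and each CM_F9 library above each CM library, whereas the ranges of OI_F9 and OI overlapped. Each OI_F9 library was above the OI library of its own replicate number, but the labels do not say that these libraries are paired. As TPM, which divides by gene length and rescales each library to 1 total, the members summed to 4289 ± 192 in AI_F9 and 3722 ± 196 in AI (SD, n = 3), and to 2750 ± 113 in CM. Replicate 3 had the highest share of its group in 6 of 6 groups, and it was also the highest in the share of cytosolic ribosomal protein transcripts in 6 of 6 groups and in the summed macrophage markers in 5 of 6. Whether these move together for a technical reason was not tested. AI_F9 had the highest group mean FPKM of the 6 groups for 68 members (87.2%, against 22.0% of all genes tested), and CM had the lowest for 49 (62.8%, against 19.4%).

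**Figure D1:**
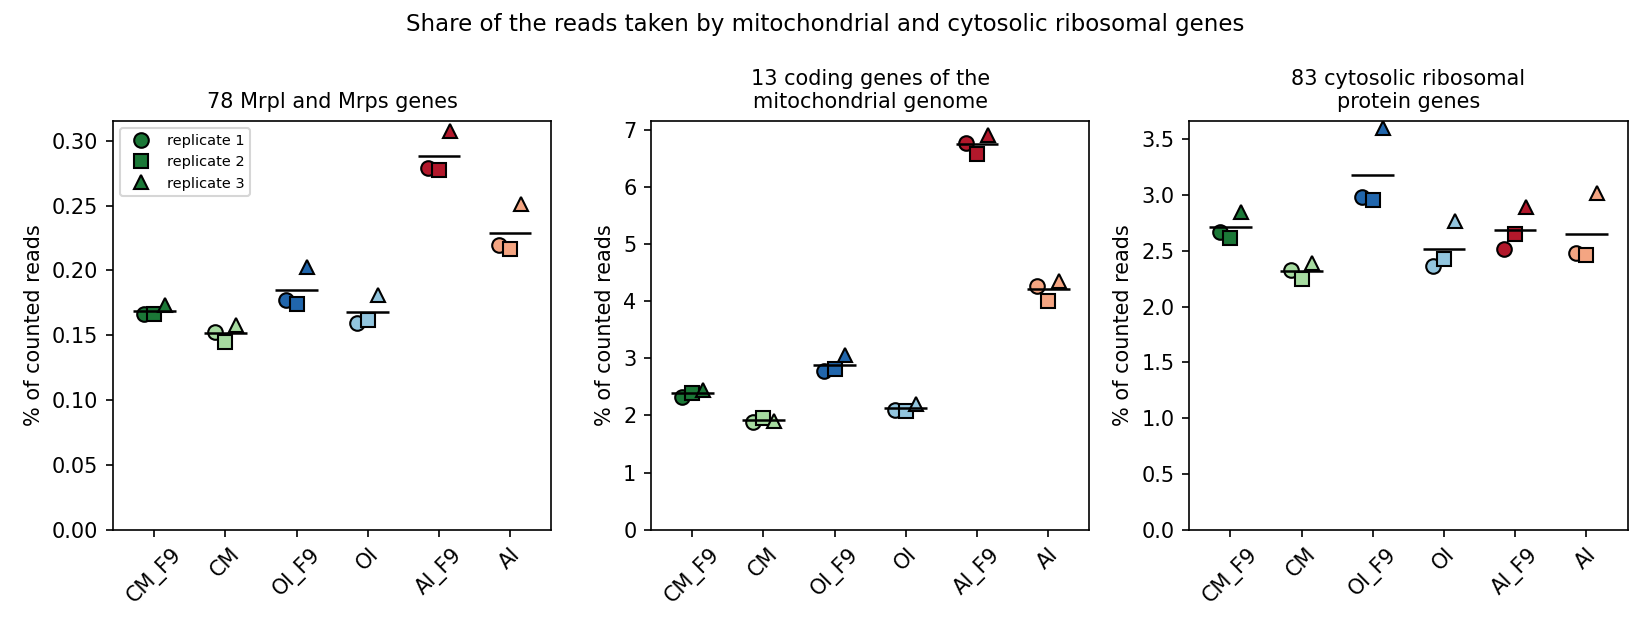
Share of counted reads (%) taken by the 78 Mrpl and Mrps genes, by the 13 protein-coding genes of the mitochondrial genome and by the cytosolic ribosomal protein genes, 1 panel each, with 1 point per library and a bar at the mean of the 3 libraries of a group. The members reached 0.278 to 0.307% in AI_F9 and 0.217 to 0.251% in AI, while the cytosolic ribosomal protein shares of these groups overlap.

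The members differed widely in level although the particle holds 1 copy of nearly every protein. Mean FPKM over the 18 libraries ran from 0.496 to 40.0 with a median of 9.48. The highest means were those of Mrps21 (40.0 FPKM), homologue of bacterial S21 in the 28S subunit, Mrps6 (31.0), Mrpl10 (29.6), which anchors the L7/L12 stalk, Mrpl12 (25.2), the stalk protein itself, and Mrpl18 (24.3). The lowest were Mrpl48 (3.25 FPKM), Mrps35 (2.35) and Mrpl53 (0.496). The 3 paralogues of bacterial S18 stood apart from each other, with 18.6 FPKM for Mrps18c and 8.86 for Mrps18b, both of the 28S subunit, and 6.05 for Mrps18a of the 39S subunit. Mrpl53 had 133 reads in all libraries together and lies wholly inside Gm42688 on the same strand, so its values rest on few reads. Overlaps with other genes are common here, since 39 members share bases with a gene that had reads and 39 do not, and reads of overlapping genes can be misassigned, since no source used here states whether counting was stranded.

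In adipogenic medium with FGF9 nearly the whole set was higher. Of the 78 members, 72 were higher in AI_F9 than in AI (background 26.9% of the genes tested) and 0 were lower (23.7%) by edgeR's quasi-likelihood test at an adjusted p of at most 0.05 (Benjamini-Hochberg over all 17631 genes). The median log2 fold change of the members was 0.49, against 0.05 over all genes tested, and all 78 estimates were above 0. Only 3 members, Mrpl53, Mrps6 and Mrpl12, also had a log2 fold change of at least 1 (background 6.66%), and 0 had one of -1 or less (9.32%). In FPKM, where composition is not corrected, 41 members had all 3 AI_F9 libraries above all 3 AI libraries (18.4% of all genes tested) and 0 had all 3 below (38.9%). By subunit, 46 of 51 members of the 39S subunit and 26 of 27 of the 28S subunit were higher, with medians of 0.51 and 0.46. Of 45 members with a bacterial homologue 40 were higher (median 0.51), and of 33 without one 32 (0.42). The members that overlap another gene with reads and those that do not had 36 and 36 higher of 39 each. The size of the rise depends on the scaling, because TMM factors were 0.906 to 0.928 in AI_F9 and 1.05 to 1.06 in AI. With library totals in place of TMM the median of all genes tested was -0.16 and that of the members 0.28, 41 members were higher, each of them among the 72, and 0 were lower. Limma on log2 FPKM plus 0.5, which does not correct composition either, called 39 members higher and 0 lower. Over all 17631 genes it called 2773 higher and 6149 lower. Background shares of calls, here and below, are those of the TMM fit unless another setting is named, and none is given for library totals.

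Among the 39S proteins, Mrpl12 showed the largest rise of the well-expressed members. Mrpl12 (ENSMUSG00000039640, GRCm39 chr11:120375439-120379891, plus strand) is the homologue of the L7/L12 stalk protein that recruits translation factors, and in human cells it has been found bound to the mitochondrial RNA polymerase. It had 50.8, 50.3 and 59.7 FPKM in AI_F9, against 27.7, 28.8 and 31.9 FPKM in AI, with a clear gap between the groups (log2 fold change 1.07 ± 0.104, adjusted p = 8.60e-09). In the media without adipogenic inducers it had 17.9, 15.6 and 19.1 FPKM in CM_F9 and 15.2, 11.4 and 15.5 in CM. Mrpl30 (chr1:37929558-37937616, plus strand), the homologue of bacterial L30, had 20.4, 20.9 and 22.7 FPKM in AI_F9 and 12.8, 12.3 and 15.1 in AI, again without overlap (log2 fold change 0.88 ± 0.0966, adjusted p = 5.93e-08). Mrpl20 (chr4:155887335-155894432, plus strand), the homologue of L20, an early-binding protein in bacterial assembly, had 31.3, 32.0 and 35.5 FPKM in AI_F9 and 17.1, 21.7 and 24.1 in AI, where replicate 1 lay apart from the others (log2 fold change 0.86 ± 0.106, adjusted p = 3.86e-07). Mrpl51 (chr6:125168764-125173232, plus strand), a protein without a bacterial counterpart, had 14.9, 14.7 and 17.5 FPKM in AI_F9, and each was above the 10.3, 9.67 and 11.3 of AI (log2 fold change 0.80 ± 0.108, adjusted p = 1.49e-06). Mrpl10, the neighbour of Mrpl12 in the stalk, was among the most abundant members and moved less, with 43.4, 42.8 and 45.8 FPKM in AI_F9, 35.9, 35.5 and 39.8 in AI and a log2 fold change of 0.46 ± 0.0733 (adjusted p = 1.55e-05).

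The promoters of some members named for their rise in AI_F9 or for a small p in a difference between media are shown here. They let the sequences be compared and come from the RefSeq table of GRCm38.p6, whereas the deposited gene positions are on another build (GRCm39). Each line gives the 150 bases before the annotated start, 5′ to 3′ on the strand of the gene, and capitals mark a match to a motif spelled out after the sequences. The windows are chr11:120484487-120484636 (plus strand) for Mrpl12, chr1:37890327-37890476 (plus) for Mrpl30, chr4:155802728-155802877 (plus) for Mrpl20, chr6:125192050-125192199 (plus) for Mrpl51, chr17:12916092-12916241 (minus) for Mrpl18, chr9:105053118-105053267 (plus) for Mrpl3 and chr16:92058186-92058335 (plus) for Mrps6.
Mrpl12: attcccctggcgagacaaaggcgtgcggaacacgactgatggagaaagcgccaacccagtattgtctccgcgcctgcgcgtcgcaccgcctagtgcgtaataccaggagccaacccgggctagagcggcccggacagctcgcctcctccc
Mrpl30: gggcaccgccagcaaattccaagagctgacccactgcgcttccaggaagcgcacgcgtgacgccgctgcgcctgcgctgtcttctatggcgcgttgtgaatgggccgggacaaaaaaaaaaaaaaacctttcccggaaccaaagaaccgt
Mrpl20: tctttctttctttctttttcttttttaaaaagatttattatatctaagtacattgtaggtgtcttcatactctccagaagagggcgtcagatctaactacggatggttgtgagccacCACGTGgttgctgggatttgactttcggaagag
Mrpl51: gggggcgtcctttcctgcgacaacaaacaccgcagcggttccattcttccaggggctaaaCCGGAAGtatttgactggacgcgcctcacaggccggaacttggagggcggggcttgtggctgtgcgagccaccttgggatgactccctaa
Mrpl18: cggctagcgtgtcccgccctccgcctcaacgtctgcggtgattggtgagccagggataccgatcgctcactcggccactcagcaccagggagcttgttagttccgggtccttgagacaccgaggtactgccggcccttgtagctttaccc
Mrpl3: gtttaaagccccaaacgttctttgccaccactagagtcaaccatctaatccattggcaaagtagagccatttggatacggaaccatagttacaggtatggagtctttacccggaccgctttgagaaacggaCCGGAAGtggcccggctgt
Mrps6: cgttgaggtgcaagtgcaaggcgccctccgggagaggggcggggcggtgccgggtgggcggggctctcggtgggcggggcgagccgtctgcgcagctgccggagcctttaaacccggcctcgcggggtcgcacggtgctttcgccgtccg
The capitals in Mrpl51 and Mrpl3 are the core CCGGAAG of ETS factors such as GABPA, and those in Mrpl20 are an E-box, CACGTG. Mrpl18 also has an ETS core in the longer window searched below, outside the bases printed here.

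Of the 78 members, 69 had an entry in the promoter table, and the others were Mrpl4, Mrpl13, Mrpl15, Mrpl19, Mrpl38, Mrpl54, Mrps28, Mrps34 and Mrps35. The motifs were searched on both strands from 250 bases before to 50 after the start. The ETS core was found in 26 of the 69 members (37.7%), against 18.2% of the 11920 tested genes with an entry and 9.93% of all 27025 genes with one. YY1's core AAGATGGC was found in 12 members (17.4%, against 4.81% of the tested genes and 3.19% of all), and that of NRF1, GCGCATGC, in 8 (11.6%, against 5.40% and 3.05%). The E-box was found in 5 (7.25%, against 11.1% and 8.09%). Within the 250 bases before the start alone, the ETS core was found in 18 members (26.1%, against 14.3% of the tested genes) and YY1's in 4 (5.80%, against 2.32%). There NRF1's core was found in 8 (11.6%, against 4.56%) and the E-box in 5 (7.25%, against 9.45%). Median GC content of the windows was 58.0% in the members, 60.3% in the tested genes and 52.8% in all genes. The median log2 fold change in AI_F9 against AI was 0.41 for members with an ETS core and 0.50 for members without, 0.42 and 0.49 for YY1, 0.44 and 0.49 for NRF1, and 0.49 and 0.47 for the E-box. A match describes the letters of the window only, and binding was not measured.

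Within the 28S subunit Mrps6 changed most, and it rose in all 3 media. Mrps6 (GRCm39 chr16:91855158-91909115, plus strand) is the homologue of bacterial S6. It had 41.1, 40.4 and 44.0 FPKM in AI_F9 and 20.4, 21.2 and 24.97 in AI (log2 fold change 1.12 ± 0.0842, adjusted p = 9.65e-11). It had 42.3, 43.2 and 52.4 FPKM in OI_F9 and 20.8, 20.6 and 21.7 in OI (log2 fold change 1.08 ± 0.0844, adjusted p = 2.87e-10), and 37.6, 39.7 and 42.5 in CM_F9 and 15.3, 14.7 and 15.03 in CM (log2 fold change 1.35 ± 0.0868, adjusted p = 8.78e-12). No library with FGF9 came near a library without it. Mrps6 shares 29152 bases of its locus, on the same strand, with Slc5a3, a sodium-coupled myo-inositol transporter that had 92171 reads against 16020 for Mrps6. Slc5a3 rose as well, with 26.0 ± 1.37 FPKM in AI_F9 and 12.9 ± 1.24 in AI, 45.5 ± 2.47 in OI_F9 and 15.8 ± 2.25 in OI, and 39.04 ± 0.742 in CM_F9 and 11.6 ± 0.724 in CM (SD, n = 3), and log2 fold changes of 1.22, 1.48 and 1.69. How far the reads of one reach the count of the other was not tested. Mrps22 (chr9:98470783-98483713, minus strand), a 28S protein specific to mitochondria, had 10.9, 11.3 and 12.4 FPKM in AI_F9 and 7.46, 7.30 and 8.69 in AI, without overlap (log2 fold change 0.77 ± 0.101, adjusted p = 9.39e-07). Mrps27, an RNA-binding protein of the pentatricopeptide-repeat family, had 15.1, 14.9 and 19.3 FPKM in AI_F9 and 11, 10.8 and 12.5 in AI (log2 fold change 0.73 ± 0.103, adjusted p = 2.75e-06). Mrps35, a low-level member, had 3.73, 3.79 and 3.80 FPKM in AI_F9 and 2.29, 2.37 and 2.95 in AI (log2 fold change 0.78 ± 0.110, adjusted p = 2.91e-06). In the S18 group, Mrps18c had a log2 fold change of 0.49 ± 0.128, Mrps18b of 0.42 ± 0.118 and Mrps18a of 0.34 ± 0.0934 in AI_F9 against AI (adjusted p = 0.00277, 0.00464 and 0.00385). The most abundant member, Mrps21, had 48.7, 53.8 and 59.2 FPKM in AI_F9, which overlapped the 44.7, 39 and 49.7 of AI (log2 fold change 0.48 ± 0.0989, adjusted p = 0.000264).

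**Figure D2:**
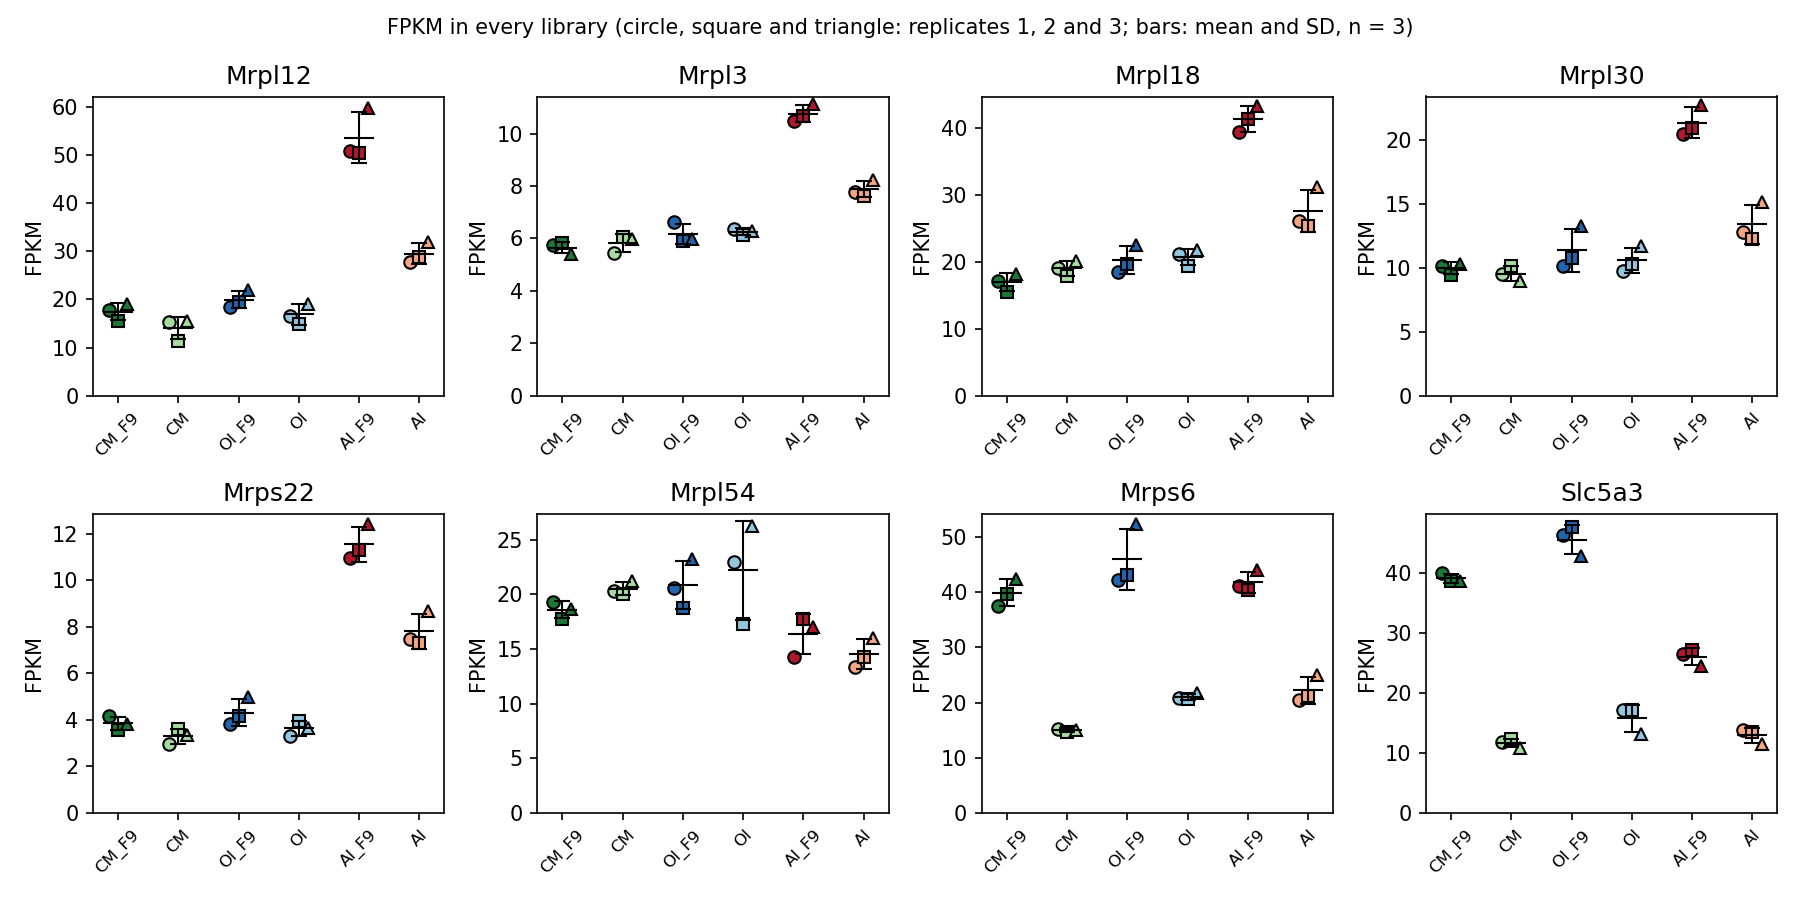
FPKM of 7 members and of Slc5a3, which overlaps Mrps6, in each library by group, with the mean and SD of the 3 libraries. Mrpl12, Mrpl30 and Mrps22 stand highest in AI_F9, Mrps6 and Slc5a3 are higher in all 3 groups with FGF9 than in their controls, and Mrpl54 is lower in AI than in CM.

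The 6 members that did not pass the test in AI_F9 against AI were Mrpl14 (log2 fold change 0.34), Mrpl41 (0.31), Mrps24 (0.25), Mrpl36 (0.17), Mrpl34 (0.16) and Mrpl23 (0.02). With library totals in place of TMM the estimates of Mrpl36, Mrpl34 and Mrpl23 turned below 0 and none passed the test. At the other end, Mrpl53, a 39S protein next to the stalk base, had 12, 11 and 8 reads in AI_F9 and 1, 2 and 3 in AI. The ratio per counted read was 5.03 (exact 95% interval 2.07 to 14.7, which covers counting error only), and edgeR gave a log2 fold change 2.46 ± 0.674, adjusted p = 0.00397. Over the same pair of groups, 9 of 10 macrophage markers were lower in AI_F9 than in AI (background 23.7%) and 0 higher (26.9%), with a median log2 fold change of -1.83. The sum of the list was 372, 381 and 406 FPKM in AI_F9 against 1305, 1259 and 1471 in AI. Lyz2 (-1.58), C1qa (-2.17) and Csf1r (-2.08) were among those that fell, and none of the 3 was at 0 in any group. The adipocyte markers moved the other way, as given above, and the part of either in the members' rise was not tested.

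**Figure D3:**
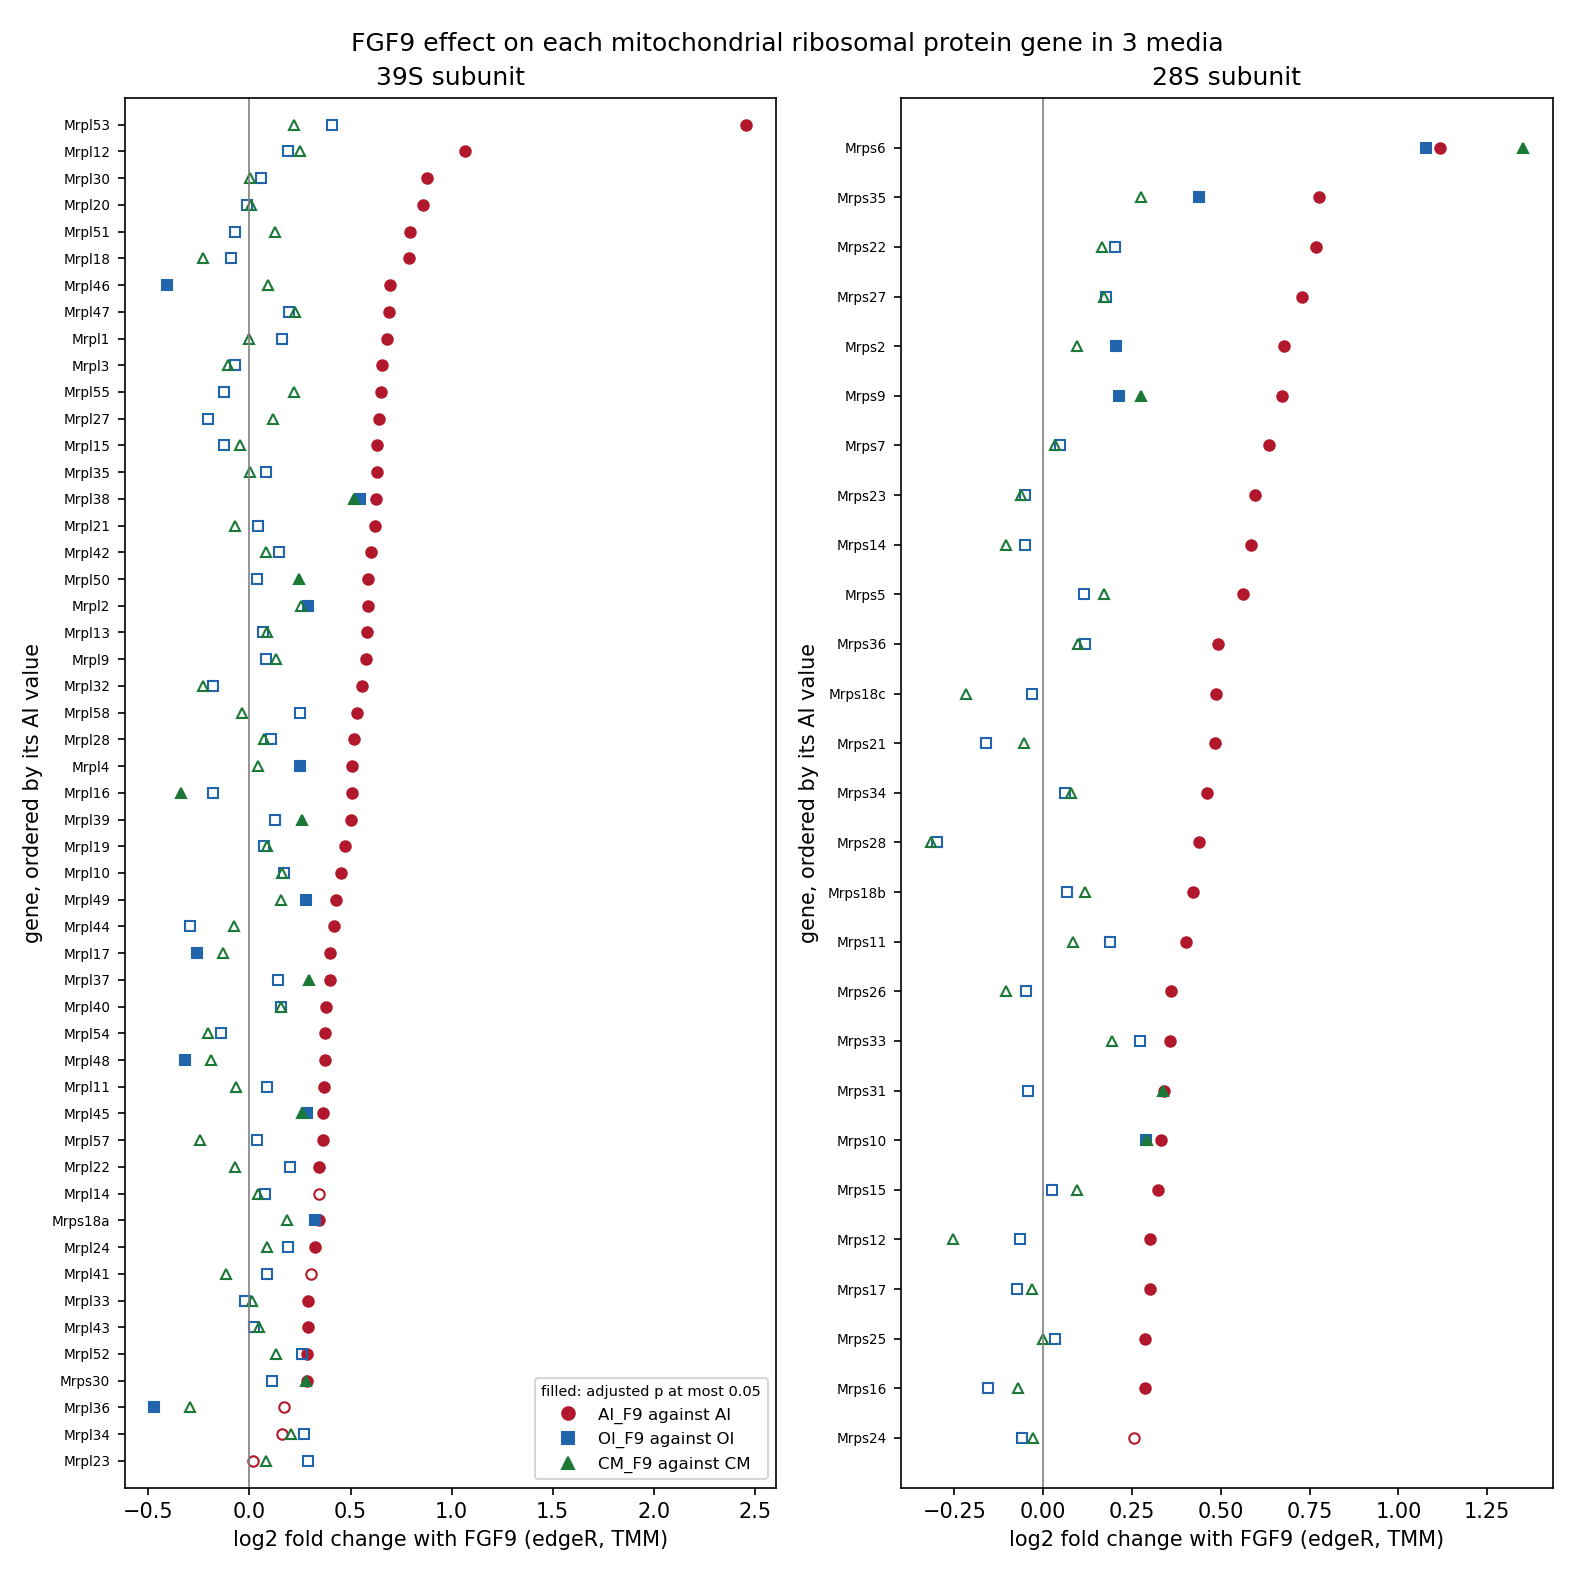
Log2 fold change with FGF9 of each member in AI, OI and CM (edgeR, TMM), 39S members in one panel and 28S members in the other, 1 point per member and medium, filled where the adjusted p is at most 0.05. In AI 72 points are filled and all 78 lie above 0, against 15 filled points in OI and 11 in CM.

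In plain culture medium few members passed the test with FGF9. Of 78 members, 10 were higher in CM_F9 than in CM by edgeR (background 18.5% of genes tested) and 1 was lower (18.9%), shares below those of all genes tested. The median log2 fold change was 0.08, against 0.02 over all genes tested. In the 39S subunit 6 of 51 were higher and 1 lower, and in the 28S subunit 4 of 27 were higher and 0 lower. Mrps6, described above, was the only member past a log2 fold change of 1 (background 5.5%), and 0 were past -1 (5.16%). Mrpl38 (GRCm39 chr11:116022643-116029694, minus strand), a protein specific to mitochondria in the central protuberance, had 9.31, 8.95 and 9.80 FPKM in CM_F9 and 5.99, 5.92 and 6.88 in CM, with no overlap (log2 fold change 0.52 ± 0.0936, adjusted p = 0.000104). Mrpl37, also specific to mitochondria, had 8.74, 8.76 and 8.46 FPKM in CM_F9 and 6.49, 6.55 and 7.26 in CM (log2 fold change 0.29 ± 0.0782, adjusted p = 0.00461). Mrpl45, which in human mitochondria lies at the exit tunnel beside the inner membrane, had 12.7, 12.7 and 14.4 FPKM in CM_F9 and 10.5, 10.4 and 10.9 in CM (log2 fold change 0.26 ± 0.0956, adjusted p = 0.0344). Mrps9, the homologue of S9, had 5.44, 5.76 and 5.74 FPKM in CM_F9 and 4.88, 4.29 and 4.25 in CM (log2 fold change 0.27 ± 0.0788, adjusted p = 0.00786). The other members that rose were Mrps31, Mrps10, Mrps30, Mrpl39 and Mrpl50, with log2 fold changes of 0.24 to 0.34. Mrpl16, the homologue of L16, which lies near the peptidyl transferase centre of bacterial ribosomes, was the 1 member that fell, with 4.21, 4.12 and 4.15 FPKM in CM_F9 and 5.06, 5.09 and 4.95 in CM (log2 fold change -0.34 ± 0.0965, adjusted p = 0.00783). Single libraries decided part of this count. It was 6 without CM replicate 1, 2 or 3 and 5 without CM_F9 replicate 3, and the count of lower members was 2 without CM_F9 replicate 2 (Mrpl16 and Mrpl48) and 3 without CM_F9 replicate 3 (Mrpl16, Mrpl18 and Mrpl32). In FPKM, 30 members had all CM_F9 libraries above all CM libraries (30.9% of genes tested) and 4 all below (19.8%). In this contrast 7 of 10 macrophage markers were lower and 0 higher (median -0.54), whose part in the members' values was not tested.

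In osteogenic medium with FGF9 a minority of the members passed the test, in both directions. In OI_F9 against OI, 11 members were higher by edgeR (background 19.8%) and 4 lower (20.1%). The median over the members was 0.07 on the log2 scale, against 0.01 over all genes tested. Pairing of the OI and OI_F9 libraries by replicate number was inferred from the data only, and the main test did not use it. With the replicate number as a block 18 members were higher and 5 lower. Mrpl38 rose here too, with 10.8, 10.4 and 13.4 FPKM in OI_F9 and 7.72, 7.02 and 8.15 in OI (log2 fold change 0.55 ± 0.0913, adjusted p = 3.72e-05). Mrps18a, the S18 paralogue of the 39S subunit, had 5.93, 6.53 and 7.13 FPKM in OI_F9 and 4.41, 5.10 and 5.62 in OI (log2 fold change 0.33 ± 0.0962, adjusted p = 0.00927). Mrpl2, the homologue of L2, a protein at the catalytic core of the bacterial large subunit, had 19.5, 21.7 and 20.1 FPKM in OI_F9 and 14.2, 15.8 and 18.5 in OI (log2 fold change 0.29 ± 0.103, adjusted p = 0.0277). Mrpl45 had 13.9, 13.5 and 15.6 FPKM in OI_F9 and 10.1, 11.4 and 12.6 in OI (log2 fold change 0.29 ± 0.0951, adjusted p = 0.0195). Mrps6 was the only member past a log2 fold change of 1 (background 5.48%), with 0 past -1 (6.07%), and the other risers were Mrps35 (0.44), Mrps10, Mrpl49, Mrpl4, Mrps9 and Mrps2, the last 5 at 0.21 to 0.29. The members that fell all belong to the 39S subunit. Mrpl36 (chr13:73476632-73480297, plus strand), the homologue of the small zinc-binding protein L36, had 11.4, 10.4 and 12.8 FPKM in OI_F9, below the 13.8, 15.2 and 17.3 of OI (log2 fold change -0.47 ± 0.141, adjusted p = 0.0104). Mrpl46 (chr7:78424984-78433279, minus strand), of the central protuberance, had 5.67, 4.82 and 5.41 FPKM in OI_F9 and 6.35, 5.68 and 8.34 in OI, where replicate 3 lay far above the others (log2 fold change -0.41 ± 0.142, adjusted p = 0.0248), and without OI replicate 3 the log2 fold change was -0.24 and did not pass the test. Mrpl48 (-0.32) and Mrpl17 (-0.26) also fell. The lower count fell to 1 when OI replicate 3 was left out, and to 0 when OI_F9 replicate 2 was. The count of higher members was 4 when OI replicate 1 was left out, 6 when OI replicate 2 was and 5 when OI_F9 replicate 3 was. In FPKM, 20 members had all OI_F9 libraries above all OI libraries (27.2% of genes tested) and 3 all below (20.1%). Of the 10 macrophage markers 7 were lower and 1 higher in OI_F9 than in OI (median -0.47), and their part was not tested.

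The response to FGF9 was larger in AI than in CM or in OI by the test of the difference itself. By edgeR's interaction term the FGF9 effect of 46 members was higher in AI than in CM (background 19.4%) and of 0 lower (20.6%), with a median difference of 0.45 on the log2 scale, against -0.00 over all genes tested. Between AI and OI, 43 members were higher (background 19.7%) and 0 lower (20.3%), with a median difference of 0.41. These 2 differences share the AI and AI_F9 libraries. With library totals in place of TMM the counts were 15 and 18 members higher, and 1 member was lower in each (Mrps6 against CM and Mrpl23 against OI). The medians were then 0.18 and 0.15 against -0.27 and -0.26 over all genes tested. Without OI replicate 3, Mrpl23 was also lower between AI and OI with TMM. The backgrounds above are those of the TMM fit. With limma on log2 FPKM plus 0.5, which does not correct composition either, 14 and 21 members were higher and 1 lower in each. Over all 17631 genes tested, that setting called 2224 and 2344 higher and 6039 and 5969 lower. Between OI and CM, 0 members were higher (background 2.12%) and 0 lower (3.37%) by edgeR, with 0 and 3 at an unadjusted p below 0.05, and DESeq2 and limma also called 0. The members with the smallest p there were Mrpl46 (difference -0.50 ± 0.206, adjusted p = 0.215), Mrps6 (-0.27), Mrps31 (-0.38) and Mrpl50 (-0.21).

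The members with the smallest p in the differences of AI from CM and OI were 39S homologues of bacterial proteins. Mrpl3 (chr9:104930438-104957087, plus strand), the homologue of L3, had 10.5, 10.7 and 11.1 FPKM in AI_F9 and 7.79, 7.63 and 8.23 in AI, whereas it had 6.62, 5.92 and 5.98 in OI_F9 and 6.38, 6.14 and 6.27 in OI, and 5.74, 5.81 and 5.40 in CM_F9 and 5.43, 6.07 and 5.98 in CM. The groups overlapped in OI and CM and were apart in AI, and the effect differed from that in CM by 0.76 ± 0.0917 (adjusted p = 4.17e-07, edgeR) and from that in OI by 0.73 ± 0.0914 (adjusted p = 8.25e-07). Mrpl18 (chr17:13130236-13135232, minus strand) is the homologue of L18, which holds the 5S rRNA in bacterial ribosomes. It had 39.3, 41.3 and 43.2 FPKM in AI_F9 and 26.1, 25.3 and 31.1 in AI, and 17.1, 15.5 and 18.2 in CM_F9 and 19.0, 17.8 and 20.1 in CM, so the direction of the means was opposite in these media. The difference was 1.02 ± 0.126 against CM (adjusted p = 6.48e-07) and 0.88 ± 0.125 against OI (adjusted p = 4.68e-06). Mrpl18 shares 645 bases with Tcp1 on the other strand, which had 86879 reads against 11543 and log2 fold changes of 0.30 in AI_F9 against AI and -0.15 in CM_F9 against CM. Mrpl16 had 11.4, 10.5 and 13.2 FPKM in AI_F9 and 9.16, 9.42 and 9.84 in AI, where it rose, whereas it fell in CM, and the difference was 0.84 ± 0.130 (adjusted p = 1.29e-05). Mrpl30 differed by 0.88 ± 0.140 from CM and 0.82 ± 0.139 from OI (adjusted p = 2.17e-05 and 4.40e-05), and Mrpl12 by 0.88 ± 0.153 from OI (adjusted p = 6.13e-05). Past a difference of 1 on the log2 scale were Mrpl18 and Mrpl53 (2.24) against CM (background 5.66%) and Mrpl46 (1.11) against OI (6%), with 0 past -1 in either (background 8.45% and 8.04%). For Mrps6, which rose in each medium, the difference was -0.23 ± 0.120 between AI and CM and 0.04 between AI and OI, and neither passed the test with TMM.

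Adipogenic medium without FGF9 also came with higher mitoribosomal protein transcripts. In AI against CM, 61 members were higher by edgeR (background 28.5%) and 3 lower (30.5%). The median over the members was 0.50 on the log2 scale, against -0.00 over all genes tested. All 3 AI libraries lay above all 3 CM libraries in FPKM for 66 members (38% of genes tested) and below for 2 (27.4%). The members past a log2 fold change of 1 (background 8.68%) were Mrps22, Mrpl38, Mrpl49 and Mrps31, and Mrpl53 alone was past -1 (13.5%). Mrps22 had 7.46, 7.30 and 8.69 FPKM in AI and 2.94, 3.59 and 3.34 in CM (log2 fold change 1.14 ± 0.109, adjusted p = 4.77e-09). Mrpl38 had 15.2, 13.9 and 15.4 FPKM in AI and 5.99, 5.92 and 6.88 in CM (log2 fold change 1.13 ± 0.0913, adjusted p = 2.36e-10). Mrpl49, a 39S protein specific to mitochondria, had 25.7, 26.1 and 30.1 FPKM in AI and 11.97, 10.8 and 12.5 in CM (log2 fold change 1.10 ± 0.0957, adjusted p = 8.47e-10). For these members no AI library came near a CM library. Mrps31, a 28S protein specific to mitochondria, had 7.16, 6.62 and 8.33 FPKM in AI and 3.83, 2.91 and 3.49 in CM (log2 fold change 1.00 ± 0.124, adjusted p = 2.77e-07), and Mrpl47, the homologue of L29, had 5.42, 4.97 and 6.51 in AI and 2.92, 2.22 and 2.72 in CM (log2 fold change 0.99 ± 0.109, adjusted p = 4.35e-08). The exceptions were in the 39S subunit. Mrpl54 (chr10:81100547-81102768, minus strand), another protein specific to mitochondria, fell to 13.3, 14.2 and 16.0 FPKM in AI, against 20.3, 20.1 and 21.2 FPKM in CM (log2 fold change -0.61 ± 0.127, adjusted p = 0.000253). Mrpl48 had 2.69, 2.80 and 3.11 FPKM in AI and 3.49, 3.19 and 3.62 in CM (log2 fold change -0.37 ± 0.0970, adjusted p = 0.00218). Mrpl53 had 1, 2 and 3 reads in AI and 15, 3 and 7 in CM, a ratio per counted read of 0.253 (exact 95% interval 0.0850 to 0.633), and its fall (log2 fold change -2.02 ± 0.699, adjusted p = 0.0163) no longer passed the test without CM replicate 1 or AI replicate 1. Both AI_F9 against AI and AI against CM called 56 members higher, and these contrasts share the AI libraries. Of the 10 macrophage markers 2 were higher in AI than in CM (Lyz2 and C1qa) and 7 lower. All 7 adipocyte markers were higher, with sums of 1591 to 1787 FPKM in AI and 46.2 to 59.5 FPKM in CM, and of the 6 osteoblast markers 2 were higher and 2 lower. The part of these cell types in the members' values was not tested.

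In osteogenic medium alone few members passed the test. In OI against CM, 7 members were higher by edgeR (background 11.8%) and 0 lower (10.8%), and 0 were past a log2 fold change of 1 (background 3.55%) or -1 (1.93%). At an unadjusted p below 0.05 edgeR gave 15 higher and 0 lower, and DESeq2 called 8 higher and 0 lower. The median was 0.11, against 0.00 over all genes tested. Mrpl46 had 6.35, 5.68 and 8.34 FPKM in OI and 4.47, 4.13 and 4.13 in CM (log2 fold change 0.66 ± 0.144, adjusted p = 0.00152). Mrps6 had 20.8, 20.6 and 21.7 FPKM in OI, all above its 15.3, 14.7 and 15.03 in CM (log2 fold change 0.47 ± 0.0893, adjusted p = 0.000393). Mrps27 had 8.10, 7.90 and 8.13 FPKM in OI and 6.58, 5.61 and 6.17 in CM (log2 fold change 0.37 ± 0.112, adjusted p = 0.0184). Mrpl37 had 8.10, 7.58 and 9.61 FPKM in OI and 6.49, 6.55 and 7.26 in CM (log2 fold change 0.30 ± 0.0783, adjusted p = 0.00756), and without OI replicate 3 the log2 fold change was 0.19 and did not pass the test. Mrpl4, the homologue of L4 at the exit tunnel, had 9.66, 9.37 and 10.1 FPKM in OI and 8.13, 6.99 and 8.28 in CM (log2 fold change 0.29 ± 0.0866, adjusted p = 0.0164). Mrps31 (0.49) and Mrpl38 (0.26) rose too. The count was 4 without CM replicate 2 and 3 without OI replicate 3. In FPKM, 21 members had all OI libraries above all CM libraries (20.1% of genes tested) and 0 all below (16.3%). Macrophage markers were 3 of 10 higher (Lyz2, C1qa and Cd68) and 0 lower in the same contrast.

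The proteins that work with the mitoribosome were compared through lists written from general knowledge. Of 5 mitoribosomal proteins without an Mrp symbol, 3 were higher in AI_F9 than in AI (background 26.9%) and 0 lower (23.7%). The 3 were Ptcd3 (0.77), a pentatricopeptide-repeat protein of the 28S subunit, Dap3 (0.41), its GTP-binding protein, and Aurkaip1 (0.27), and Chchd1 had 0.08. Ptcd3 also rose in CM_F9 (0.26) and OI_F9 (0.21). Of 14 tested translation factors, 12 were higher and 0 lower (median 0.47, background 26.9% higher and 23.7% lower) in AI_F9 against AI, 3 higher and 1 lower (median -0.02, background 19.8% and 20.1%) in OI_F9 against OI and 1 higher and 0 lower (median 0.09, background 18.5% and 18.9%) in CM_F9 against CM. The 3 in OI_F9 are a share near the background, and 1 was left without OI replicate 3 or OI_F9 replicate 2. The elongation factor gene Gfm1 had 29.3, 27.8 and 31.5 FPKM in AI_F9 and 15.7, 16.1 and 17.2 in AI (log2 fold change 1.06 ± 0.0686, adjusted p = 6.56e-12), and Tufm, which delivers aminoacyl-tRNA, had 51.7, 51.6 and 54.2 FPKM in AI_F9 and 32.0, 31.2 and 35.2 in AI (log2 fold change 0.89 ± 0.0700, adjusted p = 2.20e-10). Each AI_F9 library of both genes was well above each AI library. Gfm2, the recycling factor, and Mtres1, which rescues stalled ribosomes, had 0.66 and 1.03. In CM_F9 against CM, Gfm1 had -0.00 and did not pass the test, whereas Tufm rose (0.30).

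Assembly and rRNA-modification factors were counted next. Of 27, 13 were higher in AI_F9 than in AI (background 26.9%) and 0 lower (median 0.25), 5 higher and 2 lower in OI_F9 than in OI (0.05), and 7 higher and 2 lower in CM_F9 than in CM (0.04). The 5 in OI_F9 are near the background of 19.8% higher, and the 7 in CM_F9 (background 18.5%) were 4 without CM replicate 1 or 3 and 3 without CM_F9 replicate 1. Mterf4, which with an rRNA methyltransferase serves the assembly of the large subunit, rose in all 3 media (1.08 ± 0.0893 in AI_F9, 0.86 ± 0.0929 in OI_F9 and 0.58 ± 0.0959 in CM_F9, edgeR adjusted p = 4.72e-10, 6.47e-08 and 3.13e-05). Nsun4, an rRNA methyltransferase gene of the same list, did not rise with it. It fell in OI_F9 (-0.61) and CM_F9 (-0.53) and had -0.01 in AI_F9. Mrm3, a methyltransferase of the large rRNA, rose in AI_F9 (0.56) and CM_F9 (0.46), and in AI against CM (1.25). Mterf3 and Rmnd1 rose in AI_F9 by 0.25 and 0.33. With library totals in place of TMM, a setting without a background here, 6 factors of this list were higher and 2 lower in AI_F9 against AI.

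Of 20 mitochondrial aminoacyl-tRNA synthetases and amidotransferase subunits, 14 were higher in AI_F9 than in AI (background 26.9%) and 0 lower (median 0.47), whereas in CM_F9 against CM 2 were higher (background 18.5%) and 6 lower (18.9%, median -0.06), and in OI_F9 against OI 4 were higher (19.8%) and 2 lower (20.1%, median 0.03). The 4 in OI_F9 are at the background share and were 1 without OI replicate 1 and 2 without OI replicate 3 or OI_F9 replicate 1, and the 2 higher in CM_F9 were 0 without CM_F9 replicate 3. Gatb, a subunit of the enzyme that makes glutaminyl-tRNA, changed in opposite directions. It rose in AI_F9 (0.53 ± 0.102) and fell in OI_F9 (-1.94 ± 0.103) and CM_F9 (-0.71 ± 0.106), with edgeR adjusted p = 0.000120, 2.43e-13 and 9.33e-06. The difference of AI from CM was 1.24 ± 0.147 for Gatb (adjusted p = 3.22e-07, edgeR). Mars2, for methionine, rose in AI_F9 (0.68) and fell in CM_F9 (-0.34), and Iars2, for isoleucine, rose in AI_F9 (0.72) and CM_F9 (0.18).

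Among 18 genes of mitochondrial transcription and its activators, 9 were higher (background 26.9%) and 2 lower (23.7%) in AI_F9 than in AI (median 0.30). With library totals, which these backgrounds do not cover, 6 were higher and 6 lower. In OI_F9 against OI 6 were higher (background 19.8%) and 1 lower (20.1%, median 0.05), and in CM_F9 against CM 7 were higher (18.5%) and 1 lower (18.9%, median 0.15). Esrra, Gabpa, Lrpprc, Polrmt, Tfam and Tfb2m rose in both, Ppargc1a also in CM_F9, and Pprc1 fell in both. Ppargc1a, a coactivator known to drive mitochondrial biogenesis, had 6.71, 6.72 and 6.96 FPKM in AI_F9 and 3.58, 3.61 and 3.52 in AI (log2 fold change 1.13 ± 0.112, adjusted p = 1.03e-08), and its paralogue Ppargc1b had 7.90, 7.71 and 6.62 in AI_F9 and 2.61, 2.50 and 1.59 in AI (log2 fold change 1.94 ± 0.173, adjusted p = 1.87e-09). Both were under 1 FPKM in every library of CM, CM_F9, OI and OI_F9. Lrpprc, which stabilises mitochondrial mRNAs, had 15.3, 15.7 and 16.1 FPKM in AI_F9 and 10.2, 9.88 and 9.88 in AI (log2 fold change 0.86 ± 0.0544, adjusted p = 4.75e-12). It rose as well in OI_F9 (0.36) and CM_F9 (0.31). Esrra, a nuclear receptor partner of the coactivators, and Tfam, which packages and transcribes the mitochondrial genome, rose by smaller amounts (0.43 and 0.37 in AI_F9). Myc fell in AI_F9 (-0.22 ± 0.0870, adjusted p = 0.0406).

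The 13 mRNAs that the mitoribosome translates are encoded in the mitochondrial genome. All 13 were higher in AI_F9 than in AI (median 0.95, background 26.9% of genes tested) and 12 in OI_F9 than in OI (0.43, background 19.8%). In CM_F9 against CM 6 were higher (0.25, background 18.5%), and in AI against CM 13 (1.02, background 28.5%). In each contrast 0 were lower (background 23.7, 20.1, 18.9 and 30.5%). They took 6.77, 6.58 and 6.91% of the counted reads in AI_F9, against 4.27, 4.003 and 4.36% in AI. The share was 2.78, 2.81 and 3.07% in OI_F9 and 2.09, 2.08 and 2.21% in OI, and 2.33, 2.40 and 2.45% in CM_F9 and 1.89, 1.96 and 1.89% in CM, without overlap in any medium. The libraries were made from poly(A) RNA, and the tails of mitochondrial mRNAs were not measured here. mt-Nd2 and mt-Nd1 had log2 fold changes of 1.19 and 1.26 in AI_F9 against AI, mt-Nd4 0.79 and mt-Co1 0.60.

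Cytosolic ribosomal protein genes, 81 of 83 tested, were set beside them as the proteins of the other ribosome of the cell. In OI_F9 against OI, 55 were higher (background 19.8%) and 0 lower (median 0.30), with 21 to 63 when 1 library was left out (33 with OI replicate 1 omitted, 21 with OI_F9 replicate 3 omitted). In CM_F9 against CM 18 were higher and 0 lower (0.17), near the background of 18.5%, with 3 to 13 when 1 library was left out (3 without CM_F9 replicate 3) and 49 with the replicate block. In AI_F9 against AI 48 were higher (background 26.9%) and 0 lower with TMM (0.25), with 13 to 62 higher when 1 library was left out. The count was 18 without AI replicate 1, 13 without AI replicate 2 and 20 without AI_F9 replicate 3. With library totals 2 were higher and 2 lower (0.04), and their share of the counted reads was 2.52, 2.65 and 2.90% in AI_F9 and 2.48, 2.47 and 3.02% in AI, which overlap. By the interaction term, the FGF9 effect of 1 cytosolic gene was higher (background 19.4%) and of 0 lower (20.6%) in AI than in CM. In AI against OI it was higher for 0 (background 19.7%) and lower for 2 (20.3%). Of the mitoribosomal members 46 and 43 were higher in these 2 differences. The 2 kinds of list share libraries and scaling, and no test between them was made.

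**Figure D4:**
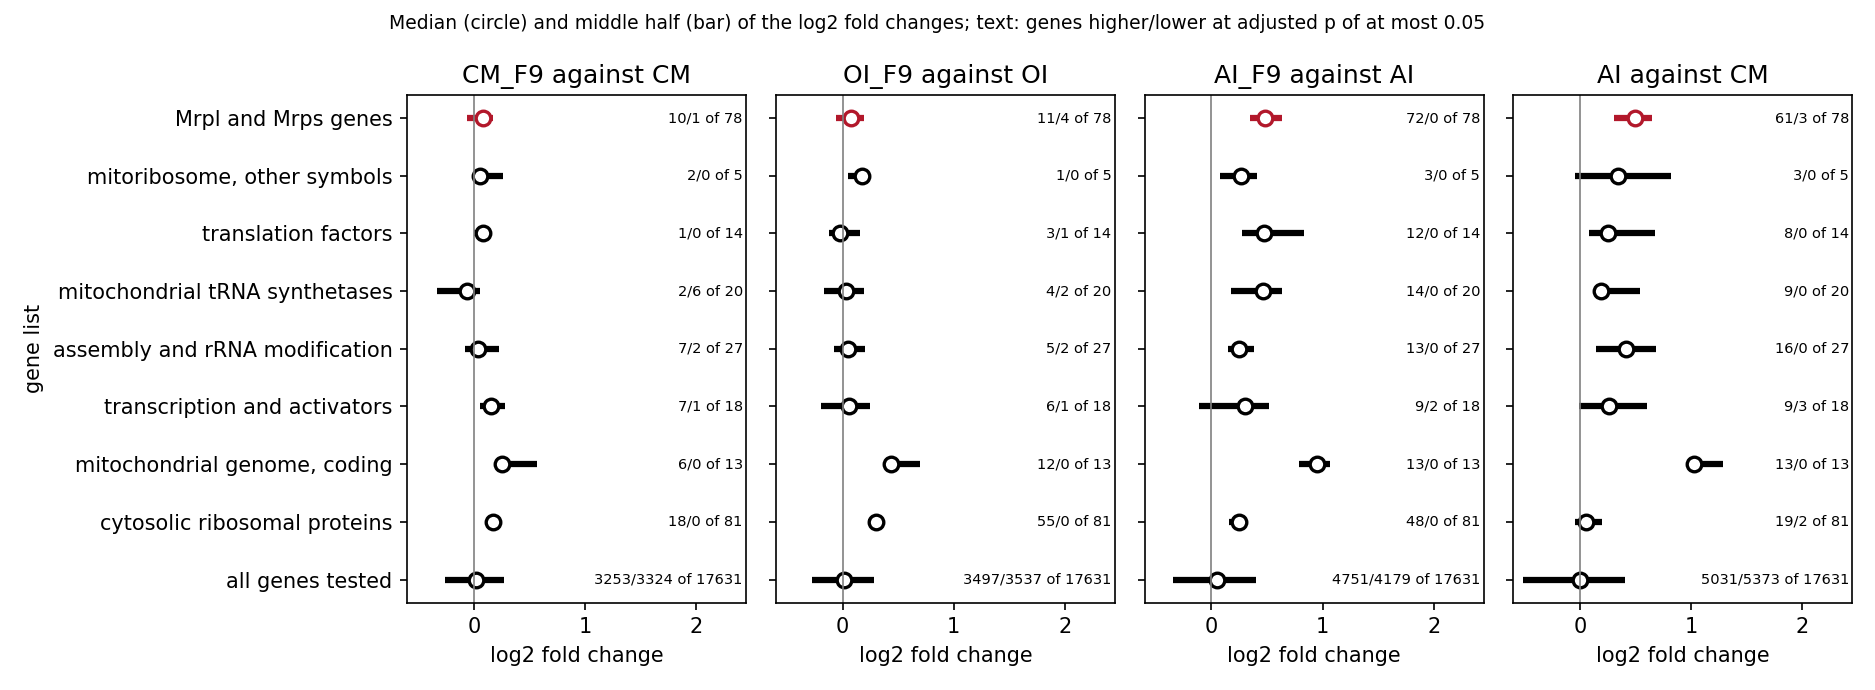
Median (mark) and interquartile range (bar) of the log2 fold changes of each gene list in CM_F9 against CM, OI_F9 against OI, AI_F9 against AI and AI against CM, with all genes tested for comparison and the counts of higher and lower genes printed beside each bar. In AI_F9 against AI the medians were 0.49 for the 78 Mrpl and Mrps genes, 0.95 for the mitochondrial mRNAs and 0.05 for all genes tested.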

How the data were processed

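Gene counts of BMSC poly(A) RNA were analysed in 6 groups of 3 libraries (CM_F9, CM, OI_F9, OI, AI_F9 and AI). Per the submitters' processing notes the authors used cutadapt 1.9.1, HISAT2 2.2.1, HTSeq 0.6.1 and GRCm39. The strand setting of HTSeq was not given in the sources used here. The authors deposited raw read counts per gene and FPKM computed from them. Recomputed from counts, gene length and library total, every FPKM from 5 upwards matched within 1%. FPKM corrects for neither composition nor multi-mapping. Of the deposited annotation, gene symbol, position, strand and exonic length were used. The 78 members, the gene lists and the tests were chosen with earlier results of these data known, so no p value over the members as a set is given.

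Counts were fitted with edgeR 4.0.16 (R 4.3.3): filterByExpr, TMM, 1 mean per group over all 18 libraries, and the quasi-likelihood test, with Benjamini-Hochberg adjustment over 17631 genes per contrast. The common biological coefficient of variation was 7.69%. FGF9 was contrasted with its control in each medium, the FGF9 effects between media, and OI and AI with CM. With 3 libraries against 3 an exact permutation test cannot give a p below 0.1, so none was run. In simulated counts for AI_F9 against AI (17631 genes, 50 changed per fold) 18% of genes changed 1.25-fold were called, 58% at 1.5-fold, 76% at 2-fold and 90% at 4-fold, and 7 of 16856 unchanged genes were called. The changed genes were drawn at any expression level and were far fewer than the genes called in the data, so these rates need not hold for the members. Deviations of libraries with the same replicate number correlated by 0.119, 0.145 and 0.171 between OI and OI_F9, which was taken as pairing from the data. No other pair of groups had all 3 above 0.1. For replicate 3 alone the correlation was higher between OI_F9 and AI (0.219) and between OI and AI (0.199). The labels do not state a pairing.

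Members were named if past a log2 fold change of 1 in a contrast, among the 5 largest rises or falls with at least 5 FPKM, among the 4 smallest p values of each difference between media, among the 5 highest or 3 lowest in mean FPKM, or of the S18 group. From each list the 4 genes of smallest p were named, with Ppargc1a, Ppargc1b, Myc and Tfam. Members named beside a count of other calls were chosen after their values were seen. Alternatives were library totals, DESeq2 size factors and upper-quartile scaling, DESeq2 1.42.0, limma 3.58.1 on log2 FPKM with 0.5, 0.1 or 1 added, no filter, at least 50 reads in 3 libraries, the libraries of the contrast only, the replicate block and each library left out. The values of 1 named gene are not reported here.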

Additional observations from a re-analysis of the deposited data

Results flagged for a closer look

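The FGF9 effect differed between media by the interaction term of edgeR. For 46 members it was higher in AI than in CM (background 19.4% of genes tested) and for 0 lower (20.6%). For 43 it was higher in AI than in OI (background 19.7%) and for 0 lower (20.3%). With library totals in place of TMM, a setting these backgrounds do not cover, 15 and 18 members were higher and 1 was lower in each. Among the single members, the effect in AI exceeded that in CM on the log2 scale by 0.76 for Mrpl3, 1.02 for Mrpl18, 0.84 for Mrpl16 and 0.88 for Mrpl30. It exceeded that in OI by 0.73 for Mrpl3, 0.88 for Mrpl18, 0.82 for Mrpl30 and 0.88 for Mrpl12. These differences share the AI and AI_F9 libraries. With 3 libraries in each group, no formal outlier test was made.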

How the results depend on the processing

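Counts of members called in each contrast were recomputed under every alternative. With library totals in place of TMM, 17 members were higher in CM_F9 than in CM, 41 in AI_F9 than in AI, 15 in the difference of AI from CM (1 lower) and 18 in that of AI from OI (1 lower). With limma on log2 FPKM plus 0.5, 0.1 and 1, the counts were 17, 17 and 16 in CM_F9, 39 under each in AI_F9, 14, 14 and 16 for AI minus CM and 21, 20 and 21 for AI minus OI, each with 1 lower, and with 0.1 added 2 were lower in OI_F9. These settings lack the correction for composition, by their construction. Over all genes tested, limma with 0.5 added called 4055 higher and 2758 lower in CM_F9, and 2773 and 6149 in AI_F9. Counts under the other settings are given without such a background. The lower count in CM_F9 was 2 with DESeq2 size factors, with DESeq2 and with at least 50 reads in 3 libraries, and 3 with the libraries of the contrast only, where OI_F9 had 7 higher and 2 lower. With the replicate block the counts were 4 lower in CM_F9, 18 higher in OI_F9, 13 higher in OI against CM and 1 lower in AI minus CM (Mrps6), and the block gave 15 higher in CM_F9, 75 in AI_F9, 61 in AI against CM, 56 for AI minus CM and 50 for AI minus OI. Without replicate 3 of every group, a setting chosen after seeing the data, 4 members were lower in CM_F9, and 73 were higher in AI_F9. The causes of these shifts were otherwise not tested.

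With 1 library left out at a time, the higher and lower counts were 5 to 8 and 1 to 3 in CM_F9, 4 to 12 and 0 to 5 in OI_F9, 56 to 74 and 0 in AI_F9, 3 to 9 and 0 in OI against CM, 54 to 61 and 2 to 3 in AI against CM, 33 to 51 and 0 for AI minus CM, 33 to 52 and 0 to 1 for AI minus OI, and 0 for OI minus CM. The members' median ran from 0.40 to 0.54 in AI_F9, from 0.03 to 0.08 in CM_F9 and from -0.02 to 0.13 in OI_F9. Of 746 values of named members under the alternatives, 715 kept their side of the threshold and 31 no longer passed it, in CM_F9 (Mrps9 and Mrpl45), OI_F9 (Mrps18a, Mrpl2, Mrpl45, Mrpl36 and Mrpl46), OI against CM (Mrps27, Mrpl37 and Mrpl4) and AI against CM (Mrpl53). None changed direction.

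Depth limits Mrpl53 most, with 133 reads in all. Small changes may be missed, since 18% of simulated 1.25-fold changes were called. Overlapping genes, such as Slc5a3 with Mrps6, Tcp1 with Mrpl18 and Mapk8ip3 with Mrps34, may exchange reads, and 6 pseudogene symbols took 694 reads against 672246 for the members.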
